A study of Homo sapiens with 32 samples.

Results

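The hypoxia response of MDA-MB-231 cells was measured while the mTOR kinase was inhibited, in total mRNA (T) and in polysomal mRNA (P). MDA-MB-231 is an established human cell line from a triple-negative, mesenchymal-type breast cancer. All cells compared received PP242, an ATP-competitive inhibitor of both mTOR complexes, at 2.5 µM for 3 hours. Those kept in normoxia are called NPP and those kept at 0.5% O2 for 24 hours are called HPP. Each condition had 2 biological replicates by the labels, each with a T and a P library, so 8 of the 32 libraries of the series belong to the comparison (HPP T, NPP T, HPP P and NPP P, 2 libraries each). The same line without PP242, in normoxia (N) or hypoxia (H), gave 8 further libraries. These were used to estimate the spread and to set the hypoxia effect with PP242 beside that without. P is the mRNA sedimenting with several ribosomes in a sucrose gradient. Translational efficiency (Te) is the change in P minus the change in T on the log2 scale, relative to the other mRNAs, so a change in polysome loading common to all mRNAs cannot be seen.

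Cells short of oxygen stop hydroxylating the HIF-alpha proteins, which then escape degradation, pair with ARNT and bind the sequence ACGTG or GCGTG, the core of the hypoxia response element, near genes of glycolysis, pH control, matrix synthesis and angiogenesis. mTORC1 is the kinase that couples nutrients and growth factors to translation. It acts most on mRNAs that begin with a terminal oligopyrimidine (TOP) tract, which encode ribosomal proteins and elongation factors, and hypoxia is itself known to lower mTORC1 activity.

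The 8 libraries held between 31001024 and 39536845 counts, and the genes were tested over all 16 MDA-MB-231 libraries, of which the shallowest held 18340916. Of the annotated genes, 19815 were protein-coding and 13510 of these passed the filter on low counts. Transcripts of the mitochondrial genome made up 5.15% to 6.4% of counts in the T libraries of NPP and HPP and 0.592% to 1.08% in the P libraries, so the fractions stood apart. Listed markers of the line were high. VIM, the intermediate filament of mesenchymal cells, lay at 3110 to 6080 CPM, counts scaled to a common library size. VIM did not set the line apart from the MCF10A libraries of the series, which spanned 1690 to 9370 CPM. CAV1, at 375 to 634 CPM, was lower than in MCF10A (2020 to 3300 CPM). ZEB1, AXL and MSN lay above their MCF10A ranges, AXL at 731 to 1050 against 225 to 401 CPM, and CD44 overlapped its own. KRT5, a keratin of basal epithelium, lay at 0 to 0.132 CPM (MCF10A 1190 to 3270), and KRT6A at 0 to 0.0329 CPM (MCF10A 16.4 to 250). Other markers listed as low or absent did not follow this. EPCAM, at 10.5 to 15.6 CPM, lay above MCF10A (0.103 to 0.461 CPM), and GATA3, at 5.03 to 9.72 CPM, spanned its MCF10A range (5.44 to 8.74 CPM). CDH1 and TP63 were near 0 in both lines, CDH1 at 0.0585 to 0.283 against 0 to 0.361 CPM. The summed level of 11 markers listed as low or absent in the line, mainly epithelial, with the hormone receptors ESR1 and PGR, was higher in HPP, at 133 and 135 CPM in HPP T against 80.8 and 118 CPM in NPP T, and at 185 and 182 CPM in HPP P against 132 and 159 CPM in NPP P. Most of it was SFN, which at 58.9 to 166 CPM was within the range of the MCF10A libraries (64.1 to 267 CPM) or close to it and was higher in HPP, while EPCAM went from 15.6 and 14 CPM in NPP P to 11.6 and 11.5 CPM in HPP P. Of the 7 markers that passed the filter, 4 had both HPP P libraries below both NPP P libraries, where 29.8% of all genes did. Their median log2 fold change was 0.16 in T and -0.34 in P, and with 1 library left out it ran from 0 (without the second NPP T library) to 0.23 in T and from -0.43 to -0.11 (without the first NPP P library) in P. None passed the test by edgeR, and 1 to 3 of the 11 markers were at 0 in each library. Whether such markers bear on the results was not tested.

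Promoters of 4 of the genes that rose most are shown because they hold the HIF core sequence in different numbers and places. Each is the RefSeq window on GRCh38.p14 from 250 bases before the transcription start to 50 bases from it on, written 5′ to 3′ on the gene's strand, with every ACGTG or GCGTG on either strand in capitals (overlapping matches run together).
CA9, chr9:35673678-35673977, plus strand: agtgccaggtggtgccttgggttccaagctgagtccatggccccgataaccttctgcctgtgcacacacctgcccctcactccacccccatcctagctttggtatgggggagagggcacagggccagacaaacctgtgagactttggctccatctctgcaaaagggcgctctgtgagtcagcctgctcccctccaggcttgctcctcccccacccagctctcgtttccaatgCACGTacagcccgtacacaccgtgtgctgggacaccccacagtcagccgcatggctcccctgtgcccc
PPFIA4, chr1:203026241-203026540, plus strand: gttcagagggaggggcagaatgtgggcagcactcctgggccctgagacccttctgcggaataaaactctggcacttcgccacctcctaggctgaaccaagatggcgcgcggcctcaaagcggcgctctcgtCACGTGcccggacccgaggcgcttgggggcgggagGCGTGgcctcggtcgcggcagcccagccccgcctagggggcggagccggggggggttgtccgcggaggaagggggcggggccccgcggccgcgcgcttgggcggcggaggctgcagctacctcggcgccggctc
P4HA1, chr10:73096817-73097116, minus strand: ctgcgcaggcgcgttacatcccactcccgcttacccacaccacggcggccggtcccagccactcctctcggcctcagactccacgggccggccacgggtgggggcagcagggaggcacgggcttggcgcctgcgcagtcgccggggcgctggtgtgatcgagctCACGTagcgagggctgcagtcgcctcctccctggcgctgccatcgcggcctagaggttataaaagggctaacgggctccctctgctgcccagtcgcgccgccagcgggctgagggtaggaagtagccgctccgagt
BNIP3, chr10:131981874-131982173, minus strand: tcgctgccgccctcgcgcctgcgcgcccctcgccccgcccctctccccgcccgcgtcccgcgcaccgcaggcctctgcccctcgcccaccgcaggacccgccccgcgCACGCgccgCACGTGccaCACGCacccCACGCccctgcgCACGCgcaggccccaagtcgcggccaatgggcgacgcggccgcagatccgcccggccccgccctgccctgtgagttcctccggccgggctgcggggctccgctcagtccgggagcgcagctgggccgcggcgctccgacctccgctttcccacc
CA9 and P4HA1 each had 1 match, which began 18 and 86 bases before the start. PPFIA4 had 3 matches and BNIP3 had 6, counting each strand of the palindrome CACGTG, which both windows hold, as a match. TMEM45A, which was also among the genes that rose most, had 0 matches in its window and is not shown. The letters themselves were common. Among the 10298 tested genes with a window, 62.5% held ACGTG or GCGTG and 26.5% held ACGTG, against 60.5% and 30.5% of the 167 genes with a window that rose in T, and 72.0% and 28.8% of the 118 that fell. Of the 23 listed hypoxia targets with a window, 78.3% held either sequence and 47.8% held ACGTG. A match in these 300 bases is a description of the sequence and not a site.

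Under PP242, hypoxia raised CA9, NDRG1, 16 of 23 genes of glycolysis and 7 of 13 collagen hydroxylases and lysyl oxidases in total mRNA, and lowered HIF1A and 9 of 40 genes of DNA replication. At an adjusted p under 0.05 (edgeR quasi-likelihood test, Benjamini-Hochberg over all 13510 genes), 219 genes (1.62% of those tested) were upregulated and 148 (1.1%) were downregulated in T. Of these 367 genes, 138 changed by at least 1 on the log2 scale. In P, 320 genes (2.37%) were upregulated and 160 (1.18%) were downregulated, and 192 of the 480 changed by at least 1. DESeq2 on the same genes called 365 up and 327 down in T and 485 up and 447 down in P, a more even split in both. With any 1 of the 4 libraries left out, 62 to 100 genes passed in T (51 to 80 up, 8 to 28 down) and 66 to 94 in P (61 to 85 up, 5 to 15 down), a less even split. Of the called genes chosen by the naming rule 25 of 63 in T and 28 of 76 in P passed each time, CA9, NDRG1, P4HA1, BNIP3, PGK1 and HIF1A among them. The others lost the call in at least 1 of the 4 fits. A level in pooled cells does not tell fewer cells with the mRNA from less mRNA per cell.

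CA9, a membrane carbonic anhydrase of pH control, had the largest increase in T among genes above the expression minimum. It lay at 0.719 and 0.215 CPM in NPP T and at 23.5 and 13.9 CPM in HPP T. In P it lay at 1.02 and 0.454 CPM in NPP and at 34.6 and 19.8 CPM in HPP. Every HPP library was above every NPP library in both fractions, a log2 fold change of 5.30 ± 0.61 (SE, adjusted p = 0.000307) in T and 5.19 ± 0.58 (adjusted p = 0.00021) in P, both by edgeR.

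NDRG1, a stress-responsive gene linked to differentiation and metastasis suppression, was far more abundant. Its values were 91.6 and 85.4 CPM in NPP T against 1040 and 918 CPM in HPP T, and 115 and 119 CPM in NPP P against 1410 and 1230 CPM in HPP P. This was an 11.1-fold rise in T and an 11.3-fold rise in P, with SE of 0.2 on the log2 scale in each and the smallest adjusted p of the comparison (5.95e-07 in T and 5.26e-07 in P, edgeR).

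BNIP3, a mitochondrial receptor for mitophagy, rose from 169 and 167 to 988 and 850 CPM in T and from 170 and 156 to 872 and 858 CPM in P. P4HA1, the catalytic subunit of collagen prolyl hydroxylase, rose from 45.4 and 33.2 to 244 and 204 CPM in T and from 42.4 and 35.1 to 231 and 233 CPM in P. For both genes the replicates were close and the groups far apart, and the log2 fold changes were nearly equal in the fractions (2.45 and 2.41 for BNIP3, 2.51 and 2.58 for P4HA1).

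**Figure D1:**
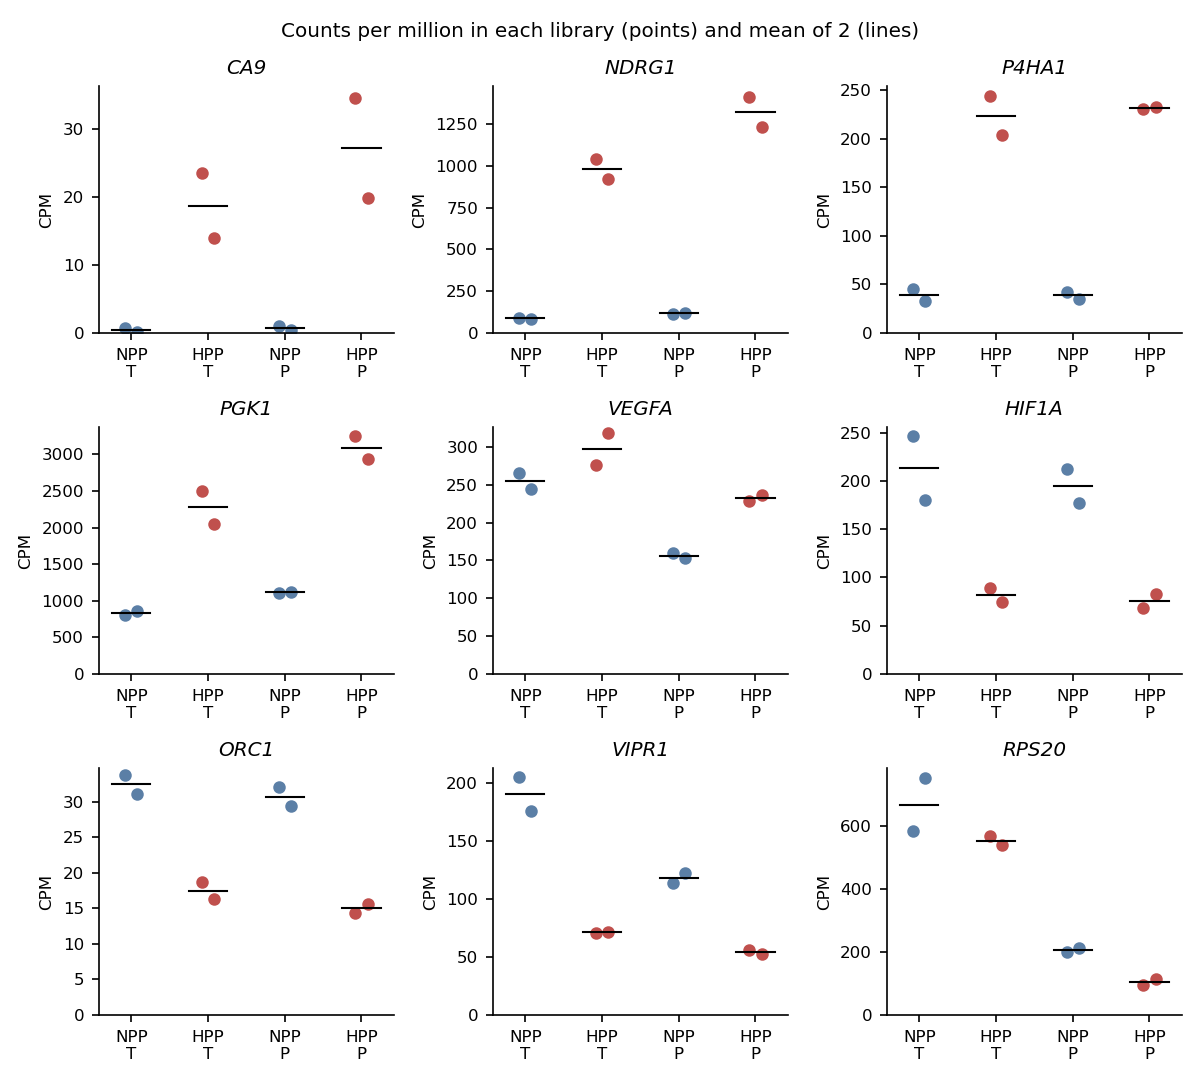
Level of 9 genes in CPM (vertical axis, linear from 0) in NPP and HPP libraries of total (T) and polysomal (P) mRNA, with 1 point per library and a line at the mean of 2. CA9, NDRG1, P4HA1 and PGK1 are higher in every HPP library, HIF1A, ORC1 and VIPR1 are lower in every one, VEGFA is apart mainly in P, and RPS20 falls from 200 and 212 to 96.4 and 115 CPM in P.

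Other genes of the leading 12 in T were PPFIA4, a liprin of cell adhesion and synaptic scaffolds (3.39), ANGPTL4, a secreted inhibitor of lipoprotein lipase (2.73), PFKFB4, which sets the level of fructose-2,6-bisphosphate (2.45), and the aldolase ALDOC (2.42). TMEM45A rose by 2.48, C10orf10 by 2.47, the dynein heavy chain DNAH11 by 2.34 and SPAG4 by 2.32 on the log2 scale. With CA9, NDRG1, BNIP3 and P4HA1 these make the 12. All but C10orf10 and BNIP3 were also among the leading 12 in P, where SPANXA1 (5.73) and the cytokine TNFSF15 (2.83) entered. TNFSF15 lay at 10.3 and 5.38 CPM in NPP P and at 61.8 and 50.1 CPM in HPP P, with an adjusted p of 0.0401 in P and 0.0812 in T (edgeR), and its P call was lost when any 1 of the 4 P libraries was left out. SPANXA1 is treated with Te below, since its value depends on how reads were divided with a near-identical gene.

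Among the listed hypoxia targets, chosen from textbook HIF genes, 22 of 29 tested were upregulated in T and 23 in P, with none down, and their median log2 fold change was 1.42 in T and 1.51 in P against -0.03 and -0.01 for all genes. LOX, the lysyl oxidase that crosslinks collagen, rose by 2.02 ± 0.16 in T and 2.05 ± 0.16 in P. EGLN3, a prolyl hydroxylase that is itself a HIF target, rose by 2.10 and 2.06. The clock genes BHLHE40 and RORA rose by 1.70 and 1.86 in T. Some classical targets did not pass the test in either fraction. DDIT4, the mTORC1 inhibitor REDD1, had log2 fold changes of -0.05 in T and -0.15 in P (adjusted p = 0.98 and 0.94, edgeR), ADM had 0.33 and 0.32, and CA12 had -0.44 and -0.23.

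VEGFA, the main angiogenic ligand, changed little beside these. Its HPP T libraries, at 276 and 318 CPM, were above its NPP T libraries, of which the higher was at 265 CPM, a log2 fold change of 0.22 ± 0.15 that did not pass the test (adjusted p = 0.464, edgeR). In P it lay at 160 and 153 CPM in NPP against 228 and 236 CPM in HPP, a rise of 0.57 ± 0.15 (adjusted p = 0.0477), and the Te difference of 0.35 ± 0.21 had an adjusted p of 1. The P call was lost when any 1 of the 4 P libraries was left out. Of 17 angiogenic and secreted factors tested, 3 rose in T (ANGPTL4, EDN1 and PGF) and 4 in P (ANGPTL4, EDN1, PDGFB and VEGFA). The calls of EDN1 in both fractions, PGF in T and PDGFB in P did not hold in every fit with 1 library left out. In those fits PGF ran from 0.66 to 1.26 in T and PDGFB from 2.03 to 2.58 in P. EDN1, a vasoconstrictor peptide, rose by 0.76 in T and 0.85 in P.

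Of 23 genes of glucose uptake and glycolysis, 16 rose in T and the same number in P, with none down and medians of 0.86 and 0.85. PGK1, which makes the first ATP of the pathway, went from 807 and 865 to 2500 and 2050 CPM in T, and from 1110 and 1120 to 3250 and 2930 CPM in P. LDHA, which turns pyruvate into lactate, went from 1940 and 1650 to 5660 and 4690 CPM in T, and from 2060 and 1760 to 5130 and 5040 CPM in P. Both stood apart in all libraries, with log2 fold changes of 1.45 (PGK1) and 1.53 (LDHA) in T. PFKFB3 rose by 1.49 in T, ENO2 by 1.05, PDK1, which keeps pyruvate out of the citric acid cycle, by 1.42, and the lactate exporter SLC16A3 by 1.04. The glucose transporters SLC2A1 (0.35 in T) and SLC2A3 (0.62), and PKM (0.43) and GAPDH (0.54), did not pass the test. Summed over the list, glycolytic mRNAs took 14500 and 14300 CPM in NPP T against 26800 and 25000 CPM in HPP T, and 16100 and 14200 CPM in NPP P against 27600 and 25800 CPM in HPP P.

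Among 10 genes of glycogen metabolism, 3 rose in T, where changes spanned -0.12 to 0.99, and 4 rose in P, where they spanned -0.29 to 1.03. The branching enzyme GBE1 rose from 117 and 120 to 237 and 235 CPM in P, with 236 and 191 CPM in HPP T (log2 fold change 0.99 in both), and PGM1 from 125 and 121 to 236 and 207 CPM in T. STBD1 was the third in T. GYS1, glycogen synthase, joined them in P, at 0.82 ± 0.20 (adjusted p = 0.0415, edgeR). That call was lost whichever P library was left out, with values from 0.66 to 0.98.

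Of the matrix-modifying enzymes, 7 of 13 collagen hydroxylases and lysyl oxidases rose in T and 7 in P, with medians of 0.54 and 0.52. The P median was 0.80 without the first NPP P library and 0.42 without the second. Besides P4HA1 and LOX these were P4HA2 (1.54 in T), PLOD2 (1.60), PLOD1 (1.11), LOXL4 (1.49) and P4HB (0.51). Among histone lysine demethylases, which need oxygen as a substrate, KDM3A (1.11 in T, 1.27 in P) and KDM6B (1.19 and 1.24) rose in both fractions, of 16 tested. KDM4B had 0.88 in T (adjusted p = 0.059) and 0.92 in P (adjusted p = 0.0436, edgeR), with a Te of 0.04 ± 0.32. The calls of KDM6B in both fractions and of KDM4B in P were lost when any 1 of the 4 libraries was left out. Mitophagy receptors gave 3 of 11 in each fraction, namely BNIP3, BNIP3L (1.17 in T) and PINK1 (0.83). The calls of BNIP3L and PINK1 did not hold in every fit with 1 library left out, where BNIP3L ran from 0.99 to 1.4 and PINK1 from 0.81 to 0.89 in T. Of 26 autophagy and lysosome genes, CTSB passed in P (0.48) and none passed in T.

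**Figure D2:**
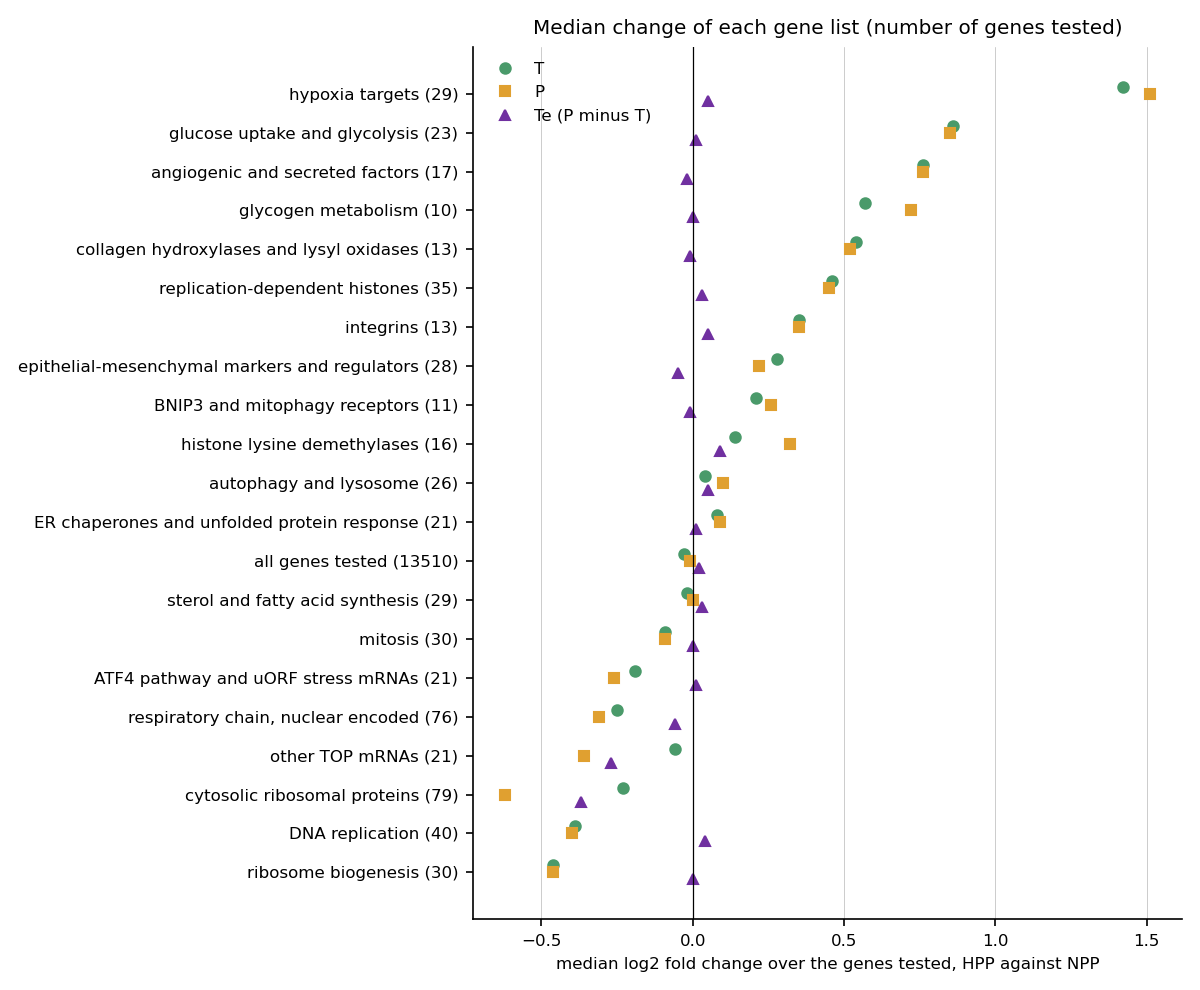
Median log2 fold change of HPP against NPP (horizontal axis) over the tested genes of the gene lists named beside it and over all 13510 genes, in T (circles), in P (squares) and for Te (triangles), with the number of genes in brackets. T and P lie close together for most lists, from 1.42 and 1.51 for hypoxia targets to -0.46 and -0.46 for ribosome biogenesis, while ribosomal proteins lie at -0.23 in T and -0.62 in P.

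Replication-dependent histone genes rose in part, 6 of 35 tested in T and 8 in P. HIST1H2AC went from 49.2 and 43.9 to 129 and 145 CPM in T and from 78.1 and 71.5 to 200 and 246 CPM in P (log2 fold change 1.55 and 1.58). HIST1H2BD rose by 1.55 and 1.73. These mRNAs mostly lack a poly(A) tail and the libraries were selected for poly(A), so the values concern their polyadenylated forms, and near-identical copies make the single genes uncertain.

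HIF1A itself, the oxygen-labile subunit, was downregulated. It lay at 247 and 180 CPM in NPP T against 89.2 and 74.6 CPM in HPP T, and at 212 and 177 CPM in NPP P against 68.4 and 82.4 CPM in HPP P. The gene has an antisense partner and the libraries were not stranded, so reads of the pair cannot be told apart. All HPP values were below all NPP values, with a fall of 1.38 on the log2 scale in T (SE 0.18, adjusted p = 0.00109) and 1.37 in P (adjusted p = 0.00117, edgeR). Its negative regulator EGLN1 rose by 1.2 in T and 1.24 in P, and the other HIF subunits EPAS1 (0.38 in T, 0.65 in P) and ARNT (-0.05 and -0.02) did not pass the test.

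VIPR1, a receptor of vasoactive intestinal peptide, had the smallest p of the 12 leading genes that fell in T. It went from 205 and 176 to 70.8 and 71.6 CPM in T and from 114 and 122 to 56.3 and 52.8 CPM in P, a fall of 1.42 and 1.11 on the log2 scale. The homeobox gene LHX4 fell from 11.1 and 7.75 to 3.13 and 2.04 CPM in T, and the zinc finger gene ZBTB40 from 51.5 and 58.0 to 17.6 and 19.2 CPM. The pro-apoptotic BH3-only gene BMF fell by 1.35 in T. The T calls of BMF and LHX4 were lost in some of the fits with 1 library left out. In those fits BMF ran from -1.5 to -1.17 and LHX4 from -2.17 to -1.56. Genes with a large fall in P were GOLGA8B (-1.60), the laminin chain LAMA3 (-1.51), EML6 (-1.45) and NFKBIZ, an atypical IκB protein (-1.38). The P calls of LAMA3, EML6 and NFKBIZ were lost when any 1 of the 4 P libraries was left out, and that of GOLGA8B was kept in 1 of the 4 fits. LAMA3 ran from -1.89 to -0.95 in P in these fits. GOLGA8B has close paralogs and MSH5-SAPCD1 (-2.06 in T, -0.61 in P) is a readthrough gene, so reads may be divided differently among libraries. The T call of MSH5-SAPCD1 was lost whichever T library was left out, with values from -2.42 to -1.7.

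Of 40 DNA replication genes, 9 were downregulated in T and 11 in P, none was upregulated, and 0 of 40 had a positive change in T (medians -0.39 in T and -0.40 in P). ORC1, the largest subunit of the origin recognition complex, fell from 33.8 and 31.1 to 18.7 and 16.3 CPM in T and from 32.1 and 29.4 to 14.4 and 15.6 CPM in P. The helicase subunit MCM3 fell from 333 and 366 to 225 and 210 CPM in T. MCM10 fell by 0.89, POLE2 by 0.91 and POLE by 1.04 on the log2 scale in T, and CDC6, MCM5, MCM6 and LIG1 by 0.63 to 0.65. The calls of MCM3, MCM10 and POLE2 in both fractions and of ORC1 in T did not hold in every fit with 1 library left out. In T, MCM3 then ran from -0.75 to -0.6, MCM10 from -0.98 to -0.77, POLE2 from -0.99 to -0.8 and ORC1 from -0.95 to -0.77. None of 30 mitotic genes passed the test in either fraction (median -0.09 in both). The mitotic median was -0.19 without the first NPP T library and 0.03 without the second HPP T library in T, and -0.21 without the first NPP P library and 0.01 without the second in P. In T, 33 of the 40 replication genes had both HPP libraries below both NPP libraries, where 27.8% of all genes did.

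Of 30 ribosome biogenesis genes, 2 fell in T (NOP2 at -0.70 and RRP9 at -0.74) and 6 fell in P, with a median of -0.46 in both fractions and 0 of 30 positive in T. With 1 library left out, RRP9 ran from -0.98 to -0.44 in T and NOP2 from -0.79 to -0.55. The calls of NOP2 in both fractions and of RRP9 in P were lost whichever library was left out. TAF1D, a subunit of the RNA polymerase I factor SL1, fell by 0.95 in P. The 76 nuclear-encoded respiratory chain genes had medians of -0.25 in T and -0.31 in P, and 0 of 76 were positive in T, but only NDUFA7 passed the test, and that in P (-0.73, adjusted p = 0.034, edgeR). Their median in T was -0.07 without the second NPP T library and -0.40 without the first. The P call of NDUFA7 was lost whichever P library was left out, with values from -0.9 to -0.56.

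Cytosolic ribosomal protein mRNAs had the median Te farthest from 0 of the lists examined, in the fit of all libraries. In T the 79 genes had a median of -0.23, which was -0.39 without the first NPP T library and -0.06 without the second, and none was called. In P the median was -0.62, every gene lay between -0.96 and -0.39, and 7 were downregulated, RPS20, RPS12, RPS18 and RPS16 among them. In P, 79 of 79 had both HPP libraries below both NPP libraries, where 29.8% of all genes did, and 78 had an unadjusted p under 0.05 and fell, against 9.81% of all genes. RPS20 lay at 200 and 212 CPM in NPP P against 96.4 and 115 CPM in HPP P, and at 584 and 752 CPM in NPP T against 568 and 539 CPM in HPP T. RPS12 lay at 114 and 148 CPM in NPP P against 70.8 and 67.5 CPM in HPP P (log2 fold change -0.92, adjusted p = 0.0341, edgeR), and had -0.22 in T. The P calls of RPS12, RPS18 and RPS20 were each lost when any 1 of the 4 P libraries was left out.

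Summed over the 79 genes, ribosomal protein mRNAs took 38700 and 42900 CPM in NPP P and 26300 and 27700 CPM in HPP P. In T they took 77100 and 94300 CPM in NPP and 73600 and 73600 CPM in HPP, where the spread of the NPP pair exceeded the distance to HPP. Cells without PP242 held 108000 and 95600 CPM in P in normoxia and 105000 and 83800 CPM in hypoxia, so the 4 PP242-treated P libraries were all below the untreated ones. Elongation factors and other TOP mRNAs summed to 19600 and 21600 CPM in NPP P and 17200 and 17300 CPM in HPP P.

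**Figure D3:**
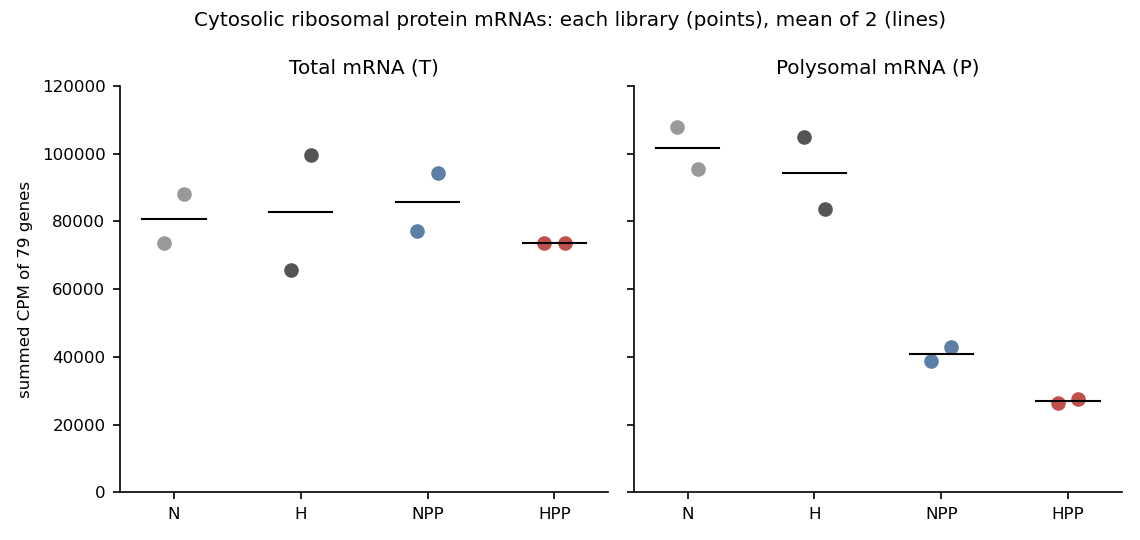
Summed CPM of 79 cytosolic ribosomal protein genes (vertical axis, linear from 0) in each of the 16 MDA-MB-231 libraries (points) with the mean of 2 (lines), for total mRNA on the left and polysomal mRNA on the right. In P the NPP libraries lie at 38700 and 42900 and the HPP libraries at 26300 and 27700, below the untreated libraries.

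The Te of all 79 ribosomal protein genes was negative, from -0.70 to -0.16 with a median of -0.37, against 0.02 for all genes. None passed the threshold for Te, and 5 had an unadjusted p under 0.05, where 0.215% of all genes fell at that level. The median Te ran from -0.58 without the second NPP T library to -0.23 without the first. The 21 other TOP mRNAs had a median Te of -0.27, with 1 of 21 above 0 and none called in T, P or Te. EEF1G, an elongation factor subunit, had -0.01 in T and -0.42 in P.

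Transcript starts of 3 of the 7 ribosomal protein genes that fell in P are shown for their pyrimidine tracts, as 30 bases of GRCh38.p14 (RefSeq) with 10 before the start, 5′ to 3′ on the gene's strand, and the run of C and T that begins with a C at the first transcribed base in capitals.
RPS12, chr6:132814559-132814588, plus strand: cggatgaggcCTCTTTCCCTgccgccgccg
RPS16, chr19:39435930-39435959, minus strand: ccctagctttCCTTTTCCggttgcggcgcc
RPS18, chr6:33272065-33272094, plus strand: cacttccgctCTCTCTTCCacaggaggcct
The runs were 10, 8 and 9 bases long. A run of at least 5 pyrimidines that begins with C within 5 bases of the RefSeq start was found in 81.0% of the 63 ribosomal protein genes with a window and in 66.7% of the 12 other TOP genes, against 22.5% of all 10298 tested genes with a window and 25.5% of the 51 respiratory chain genes. Among genes with a window that were downregulated in P it was found in 29.4%, and among those upregulated in 17.9%.

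Ribosomal protein genes have short canonical transcripts, as do the respiratory chain genes (median 783.5 bases), and length moved with the values. The shortest quartile of tested genes, of up to 2034 bases, had a median of -0.124 in P and -0.036 for Te, and the longest quartile had 0.0632 and 0.0655. Without the ribosomal protein and other TOP genes the shortest quartile had a median Te of -0.0332. The part of length in the ribosomal protein values was not tested. Respiratory chain genes, with a median length within 2 bases of that of the ribosomal protein genes, had a median Te of -0.06, which was -0.22 without the second NPP T library and 0.09 without the first.

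Of the 571 genes called in T or P, 276 were called in both, which is 75.2% of the T calls and 57.5% of the P calls, and all 276 had the same sign. No gene rose in one fraction and fell in the other. Of the 204 genes called in P alone, 203 had the same sign in T, with a median log2 fold change of 0.903 in P and 0.637 in T for the 130 that rose. Of the 91 called in T alone, 90 had the same sign in P. Across all 13510 genes the correlation of the changes was r = 0.518 and rho = 0.767, and across the 571 it was r = 0.871 and rho = 0.919, a description, since genes are not independent, both fractions come from the same cultures and the 571 were selected by their change.

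**Figure D4:**
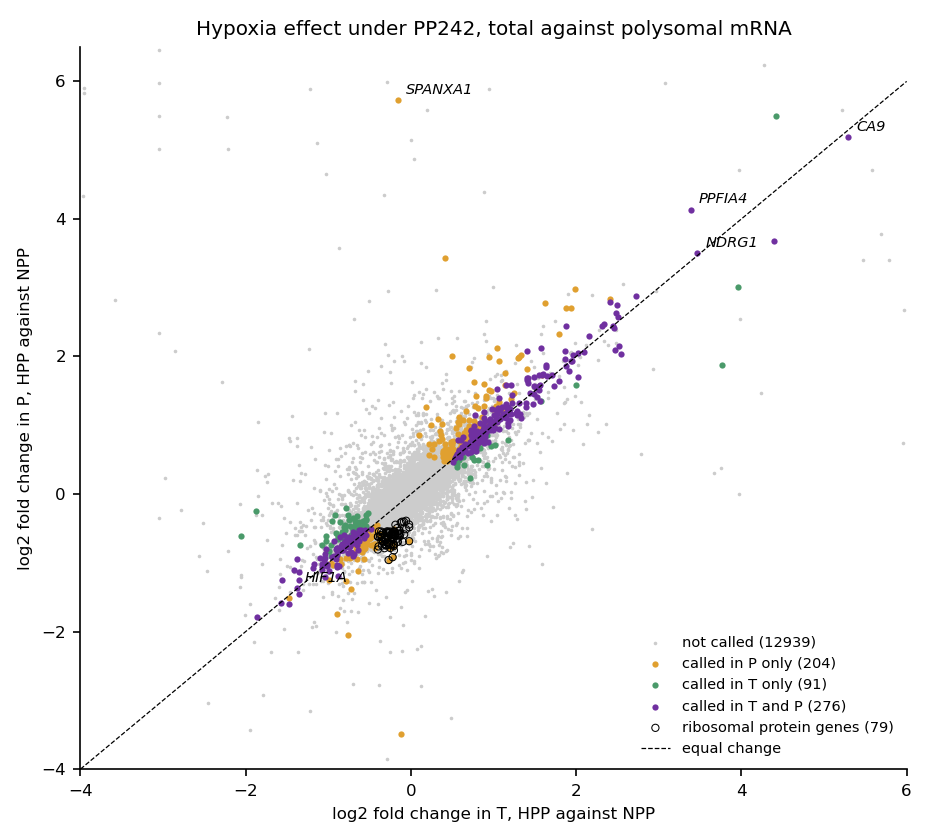
Log2 fold change of HPP against NPP in P (vertical axis) against T (horizontal axis), with 1 point per tested gene, coloured by the fraction in which it was called, and a dashed line of equal change. The genes called in both fractions lie along the line, the 79 ribosomal protein genes (open circles) lie below it, and 32 genes fall outside the axes.

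The test of Te itself, as the interaction of fraction and oxygen in the same fit, called 1 gene up (0.0074% of those tested) and 0 down, with 83 genes at an unadjusted p under 0.05. Among the 276 genes called in both fractions the median absolute Te was 0.0725 and none exceeded 1. The precision bounds this. A 95% interval of Te reached 0.581 to each side in the median gene, and 10066 of the 13510 genes had an interval within ±1, but that interval is for 1 gene and a call had to pass the adjustment over all genes. Of 357 genes with an absolute Te over 1, 1 was called. The half-width is that of the median gene and the 357 were picked by size, so this count does not measure the smallest detectable change.

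The 1 gene called for Te was SPANXA1, a cancer-testis gene of the X chromosome. It was estimated at 3 and 14 counts in NPP P and at 387 and 651 counts in HPP P, with a Te of 5.89 ± 0.61. Its near-identical copy SPANXA2 was estimated at 926 and 1287 counts in NPP P and at 387 and 651 counts in HPP P. Counts of the pair were thus equal in HPP P and assigned almost wholly to SPANXA2 in NPP P. With the counts of both genes summed, Te was 0.07 ± 0.45 (adjusted p = 1, edgeR), the change in P was -0.29 ± 0.31 and no gene was called for Te.

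A rule on size with no test of Te, an absolute z-score of Te over 1.5 with an adjusted p under 0.05 in P, named 12 genes, 9 up and 3 down, SPANXA1 included. All of the 12 but SPANXA1 were weakly expressed, at a mean log2 CPM of -1.66 to 0.87, below the minimum of 1 set for the leading genes. MMP3, a stromelysin, was the one among them from a list, at 0.368 and 0.484 CPM in NPP P against 2.11 and 1.31 CPM in HPP P, with 0.374 and 0.644 against 1.03 and 0.921 CPM in T. Its Te was 1.05 ± 0.53 (adjusted p = 1, edgeR). ITGB3, the beta-3 integrin subunit, lay at 2.24 and 1.47 CPM in NPP T, 3.10 and 3.49 CPM in HPP T, 2.27 and 1.84 CPM in NPP P and 3.74 and 4.19 CPM in HPP P. Its groups did not overlap in either fraction, which held for 49.5% of all genes in T and 58.3% in P. Its log2 fold changes were 0.82 ± 0.32 in T and 0.95 ± 0.31 in P (adjusted p = 0.198 and 0.111, edgeR), and its Te was 0.13 ± 0.45. ITGA5, the fibronectin receptor subunit, was the 1 of 13 integrins that passed, at 0.83 in T and 0.76 in P, and both calls were lost when any 1 of the 4 libraries of the fraction was left out.

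Several groups gave no or few calls. Sterol synthesis (29 genes), ER chaperones (21), interferon genes (22), ERK feedback genes (22), ID and BMP genes (14) and the 13 mitochondrially encoded mRNAs had none in either fraction by edgeR. Of 21 ATF4 and uORF stress mRNAs, VLDLR rose in both fractions (0.96 in T, 1.07 in P) and SESN2 fell in P (-0.82). Of 28 epithelial-mesenchymal genes, TGFB1 rose in T (0.77) and MMP3 in P (1.99). JAG2, a Notch ligand, rose in P (1.28), 1 of 16 Notch genes, and SESN3 in T (0.84), 1 of 20 FOXO and receptor tyrosine kinase genes. The iron importer SLC11A2 fell in T (-0.58), 1 of 10 iron genes. Over all genes, 1.62% rose and 1.1% fell in T, and 2.37% rose and 1.18% fell in P. A single call in lists of this size is thus no result about the list. In the clock list of 18, CIART rose in P (1.59) and TEF fell in T (-0.75), beside BHLHE40 and RORA. SESN2, TGFB1, JAG2, SESN3, SLC11A2, CIART and TEF lost the call whichever library of the fraction was left out, though each kept its sign. JAG2 then ran from 1.09 to 1.54, SESN3 from 0.7 to 1.03 and CIART from 1.35 to 1.92. CAV1, listed among 6 markers of the line but lower here than in MCF10A, rose by 0.53 in T and 0.52 in P. Both calls were lost whichever library of the fraction was left out, while the change spanned 0.46 to 0.66 (T) and 0.45 to 0.61 (P). All 6 listed markers had a positive change in each fraction (median 0.43 in T, 0.34 in P).

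The hypoxia effect with PP242 was then set beside that without, H against N, which shares no library with it. Without PP242, 132 genes (0.977%) rose and 39 (0.289%) fell in T, 241 (1.78%) rose and 69 (0.511%) fell in P, and 1 gene was called for Te in each direction (0.0074% each). These were FAM156B (5.36 ± 0.77) and the readthrough gene NDUFC2-KCTD14 (-8.58 ± 1.01). FAM156B was estimated at 183 and 156 counts in N T and at 12 and 2 in H T. NDUFC2-KCTD14 was estimated at 0 and 0 counts in N T and at 91 and 65 in H T. Both have a near-identical or overlapping gene, FAM156A and NDUFC2, so these values may depend on how reads were divided. In T, 137 genes were called with and without PP242, 37.3% of the 367 called with it and 80.1% of the 171 called without it. In P, 179 were called in both, 37.3% of 480 and 57.7% of 310. All 137 and all 179 had the same sign.

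Sizes were close for the genes that rose. The 219 upregulated in T had a median of 0.993 with PP242 and 0.894 without, and 219 of 219 had the same sign. The 320 upregulated in P had 0.994 and 0.829. For the genes that fell the medians were -0.791 with PP242 against -0.52 without in T (148 genes, all of the same sign) and -0.744 against -0.484 in P (160 genes, 155 of the same sign). These genes were chosen by their change with PP242, which by itself makes that side the larger. For the genes chosen by their change without PP242 the order was reversed, with medians of 1.07 with and 1.17 without for the 132 that rose in T, -0.744 and -1.03 for the 39 that fell in T, 0.863 and 1.03 for the 241 that rose in P, and -0.643 and -0.728 for the 69 that fell in P. The sign was the same with and without PP242 for 131 of 132, 39 of 39, 217 of 241 and 69 of 69 of these genes. Of the 241, 138 were also called with PP242. Among the rest 79 had the same sign, and 58 had an unadjusted p under 0.05 for the difference with none called. CA9 had log2 fold changes of 5.30 with and 5.46 without in T, NDRG1 3.47 and 3.75, LOX 2.02 and 1.85, and HIF1A -1.38 and -1.58.

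**Figure D5:**
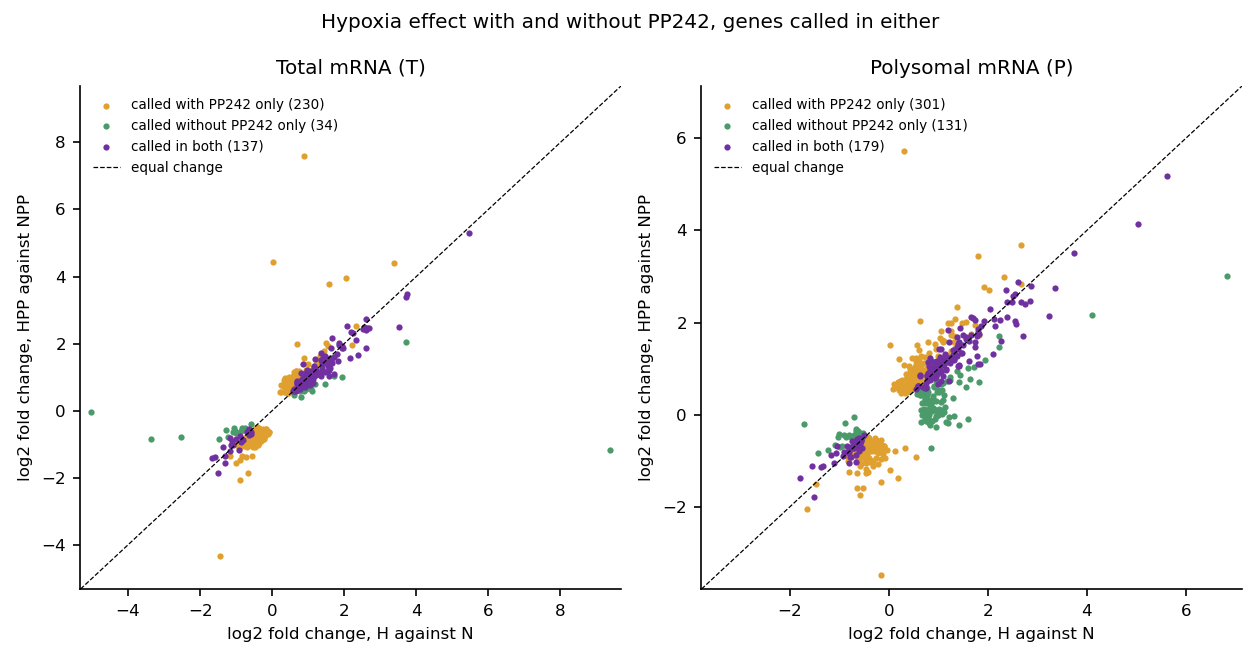
Log2 fold change of HPP against NPP (vertical axis) against that of H against N (horizontal axis) for genes called in either, in T on the left and P on the right, with a dashed line of equal change. The 137 (T) and 179 (P) genes called in both lie along the line, and the genes called up in P without PP242 only lie at a median of 0.884 without and 0.27 with PP242. Their choice by a call on one side only itself widens that gap.

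The test of the difference called 0 genes up (0%) and 1 down (0.0074%) in T, 1 up (0.0074%) and 0 down in P, and 2 up (0.0148%) and 0 down for Te. At an unadjusted p under 0.05 there were 133 genes in T, 563 in P and 110 for Te. The called genes were SPANXA1 in P and Te and NDUFC2-KCTD14, a readthrough gene, in T and Te. With near-identical or overlapping genes summed, none was called in any of the 3 tests by edgeR. DESeq2 called 14 genes in P, all lower with PP242, of which 6 were ribosomal proteins (RPS12, RPS21, RPS27, RPS28, RPS29 and RPLP2), and edgeR gave these 14 adjusted p of 0.331 to 0.773. Their median length was 498.5 bases.

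Over the list, 0 of 79 ribosomal protein genes had a positive difference in P, from -1.57 to -0.18 with a median of -0.49, and the medians in P were -0.62 with PP242 and -0.11 without. In T 0 of 79 had a positive difference as well, with a median of -0.29, and for Te 4 of 79 did, with a median of -0.24. The untreated T libraries behind the differences in T and Te did not agree. Ribosomal protein mRNAs summed to 73600 and 88000 CPM in N T and to 65800 and 99600 CPM in H T, so the H pair lay on both sides of the N pair. A sign shared by genes that move together in a library is thus not 79 separate results. The respiratory chain genes, of like length, had a median difference of -0.37 in P, with 9 of 76 positive. RPS21 showed the widest gap, at 118 and 137 CPM in NPP P against 75.7 and 79.8 CPM in HPP P, a log2 fold change of -0.72, beside 0.86 without PP242. The shortest quartile of genes had a median difference of -0.142 in P and the longest 0.074, and the genes called up in P without PP242 only were short as well (median 1692 bases against 3328 for all). The part of length was not tested.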

How the data were processed

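RNA was sequenced from total and polysomal fractions with an unstranded poly(A) protocol. Per the submitters' processing notes, STAR, RSEM and edgeR were used with GRCh37, while the study's methods name GRCh38 (no coordinate from the files is printed), and the authors deposited RSEM expected counts per gene as whole numbers. Protein-coding genes passing filterByExpr were normalised by TMM and fitted with edgeR 4.0.16 (glmQLFit and glmQLFTest) over the 16 MDA-MB-231 libraries in 8 groups, in R 4.3.3 with limma 3.58.1. P-values were adjusted by the Benjamini-Hochberg method over 13510 genes, and SE is the absolute log2 fold change over the square root of F. CPM are TMM-scaled. With 2 replicates per group the smallest 2-sided exact permutation p is 0.333, so model p-values rest on a spread shared across genes and groups and measure only the spread between these samples. DESeq2 1.42.0 and other filters, scalings, blocks and left-out libraries were tried.

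The members, lists and tests were chosen with earlier results of these data known. Named genes were the 12 with the largest change in each direction in T and P (groups not overlapping, mean log2 CPM of at least 1), up to 4 per list by smallest p, and CA9, VEGFA, NDRG1, HIF1A and ITGB3. Other list members were named after their values were seen. The symbols ERO1L, RIOX1, LEPRE1, LEPREL1, RPL40 and RACK1 had no match. Transcript lengths came from GENCODE and sequences from RefSeq on GRCh38.p14, matched by symbol. Some genes are not reported here.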

Additional observations from a re-analysis of the deposited data

Results flagged for a closer look

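The hypoxia effect with PP242 differed from that without, by the test of the difference (edgeR, adjusted over all genes), in a pair of genes. For SPANXA1 the difference was 5.42 ± 0.60 (SE) on the log2 scale in P (adjusted p = 0.00365) and 5.99 ± 0.78 for Te (adjusted p = 0.015). With the counts of SPANXA1 and SPANXA2 summed, the differences were -0.04 in P and 0.29 for Te, and neither passed the test. For NDUFC2-KCTD14 the difference was -10.56 ± 0.93 in T (adjusted p = 0.000384) and 9.28 ± 1.18 for Te (adjusted p = 0.015). This readthrough gene was estimated at 0 and 0 counts in N T, 91 and 65 in H T, 37 and 66 in NPP T and 25 and 20 in HPP T, so its fitted differences depend on the prior count and are no bound. Summed with NDUFC2, the difference was -0.36 ± 0.29 in T and 0.10 ± 0.41 for Te, each with an adjusted p of 1 by edgeR.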

How the results depend on the processing

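For HPP against NPP in T the 367 calls became 703 with no filter, 692 with DESeq2, 676 at an adjusted p under 0.10, 138 at a change of at least 1, and 62 to 100 with 1 library left out. In P the 480 calls became 1088 with no filter, 966 with only the libraries compared, 932 with DESeq2, 923 at an adjusted p under 0.10, 192 at a change of at least 1, and 66 to 94 with 1 library left out, a fit with fewer samples. Te went from 1 call to 10 with no filter, 12 and 26 by the z-score rule, 0 with near-identical genes summed (chosen after seeing the data) and 1 to 2 with 1 library left out.

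The difference with and without PP242 went, in T, from 1 to 16 with no filter, 2 with only the libraries compared, 2 with DESeq2, 2 at an adjusted p under 0.10, 0 summed and 1 to 2 with 1 library left out. In P it went from 1 to 51 with no filter, 14 with DESeq2, 0 summed and 1 to 2 with 1 library left out, and for Te from 2 to 12 with no filter, 0 summed and 0 to 3 with 1 library left out. The cause was not tested.

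With the replicate number as a block, T gave 681 calls, P 961, Te 1, and the differences 2 in T, 2 in P and 2 for Te. With the culture as a block, which a T and a P library share, Te gave 1 call and its difference 3, of which 2 were up and 1 was down. Correlations of same-numbered deviations ran from 0.0408 to 0.348 in the 6 pairs of HPP and NPP groups, 4 of them over 0.1. Over all 28 pairs of groups they ran from -0.187 to 0.348, with 19 over 0.1. The main fit had no block because the study names none, so any pairing by replicate number was left out of it. Whether same-numbered samples were paired was not tested.

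Values near 0 changed sign. Te of HIF1A was -0.01 with RLE factors, -0.02 with all gene classes, -0.03 with only the libraries compared, 0 with a culture block, -0.01 with DESeq2 and -0.23 to 0.19 with 1 library left out. Te of NDRG1 was -0.02 with only the libraries compared and -0.10 to 0.11 with 1 left out, Te of CA9 -1.23 to 0.58 and Te of ITGB3 -0.21 to 0.36. SPANXA1 was -0.29 in P, and -0.04 for its difference, when summed. Of 1178 list medians tried, 321 moved and 131 changed sign. Of the 384 over 0.2 in absolute value, 95 moved and 0 changed sign.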
